A study of Sus scrofa with 3 samples.

Results

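The red peroneal longus (PL) and the white longissimus dorsi muscle (LDM) of the pig were compared for the conserved miRNAs, which are the small RNAs that match precursors known in other mammals but not in the pig. The comparison took 2 of the 3 libraries of the study, PL and LDM, and the library of the intermediate psoas major muscle (PMM) is given only beside them. The table listed 152 entries, which are 145 unique mature sequences after identical ones were merged, and 90 of these had at least 3 reads summed over PL and LDM and were tested. All libraries came from untreated female Landrace pigs of 210 days of age, with no genetic change. RNA of 3 pigs was pooled for PL, and the sources used here do not describe pooling for LDM and PMM. Each muscle was represented by 1 library, so the spread between animals was not measured, and every test below compares these libraries, not the muscles. The PL library was sequenced for the study, while the LDM and PMM data came from earlier work on the same pigs. Fiber type and sequencing batch therefore cannot be told apart in any difference between PL and LDM. Whole muscle was used, so fewer cells of a type and less RNA per cell cannot be told apart either.

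A miRNA is cut from 1 of the 2 arms of a hairpin precursor, named 5p and 3p, and pairs with mRNAs mainly through its seed, bases 2 to 8 from its 5′ end. The bound mRNA is then translated less or degraded. Red fibers are slow and oxidative, rich in mitochondria, myoglobin, and capillaries, while white fibers are fast and glycolytic. Muscle carries a set of its own miRNAs (myomiRs), among them miR-1, and the miR-208 family, whose members lie in introns of myosin heavy chain genes. Of this set, the table analyzed here held only entries for miR-1 and miR-208a, and the other myomiRs were not analysed here. The paper counts miR-1 among its known porcine miRNAs, and the miR-1-3p entry used here differs from its listed precursor by 1 base.

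The sequences that carry the comparison are shown first, as the table gives them in DNA letters, 5′ to 3′, with the seed in capitals. The muscle miRNAs, the dominating miR-26b-5p, and the lipid-linked miR-33a-5p had different seeds.
miR-208a-3p: aTAAGACGagcaaaaagcttgt
miR-1-3p: tGGAATGTaaagaagtgtgtat
miR-26b-5p: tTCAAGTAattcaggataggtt
miR-33a-5p: gTGCATTGtagttgcattgca
A shared seed joined the 3 tested members of the miR-130 and miR-301 family, all of which had more reads in PL than in LDM.
miR-301a-3p: cAGTGCAAtagtattgtcaaagc
miR-454-3p: tAGTGCAAtattgcttatagggt
miR-301b-3p: cAGTGCAAtgatattgtcaaagc
miR-485-3p and miR-539-3p, both of the imprinted DLK1-DIO3 cluster, also shared a seed, but their ratios lay on opposite sides of 1.
miR-485-3p: gTCATACAcggctctcctctct
miR-539-3p: aTCATACAaggacaatttctt
The 2 arms of miR-590 are shown because they were called in opposite directions.
miR-590-5p: gAGCTTATtcataaaagtacag
miR-590-3p: tAATTTTAtgtataagctagt
The pair listed as the arms of miR-5105 is shown because the shorter sequence is contained in the longer one, so that both cover the same stretch of the precursor.
miR-5105-5p: gCCCAAGTccttctgatcgaggccc
miR-5105-3p: aGTCCTTCtgatcgaggccc
Of these, miR-1-3p differed from the precursor listed beside it by A17G (the precursor has the first letter, and position 1 is the 5′ base of the mature sequence), and the other sequences shown matched their precursor.

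Conserved entries summed to 23583 reads in PL against 12463 in LDM, with 16286 in PMM. They were a minor part of each library, 0.257% of the raw reads in PL (95% Clopper-Pearson interval 0.254% to 0.260%) and 0.0750% in LDM (0.0737% to 0.0763%). Levels are given as reads per M raw reads (RPM), in which 1 read was worth 0.109 RPM in PL and 0.0602 RPM in LDM. A count of 0 allowed a level of up to 0.327 RPM in PL, and of 0.181 RPM in LDM, which 3 reads would give. All intervals and these limits cover counting error only, since reads are PCR products without molecular identifiers. The excess of conserved reads in PL, 3.43-fold in RPM, came from miR-26b-5p. Without it the sum in PL was 243.7 RPM, or 0.875 times the 278.6 RPM of LDM.

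Between PL and LDM, 27 miRNAs were called, which is 30% of the 90 tested. A call needed a Bonferroni-adjusted p under 0.001 in each of 3 tests (Audic-Claverie, chi-squared, and Fisher's exact test), with the reads of 1 miRNA set against the other raw reads of its library. Higher levels were called in PL for 18 miRNAs (20% of those tested) and in LDM for 9 (10%), and 63 were not called. The miRNAs higher in PL included miR-26b-5p, miR-208a-3p, miR-301a-3p, miR-454-3p, miR-188 of both arms, miR-660-5p, and 5 miRNAs of the imprinted DLK1-DIO3 cluster. Those higher in LDM included miR-1-3p, miR-33a-5p, miR-590-5p, miR-330-3p, and miR-34b-3p. Among the 27 called, the 95% interval of the ratio lay beyond 1.5-fold for all but miR-409-3p. Read number set what could be called: 17 of the 19 miRNAs with at least 100 reads over both libraries were called, and none of the 49 with under 20 reads. At an unadjusted p under 0.05 of Fisher's exact test, 45 miRNAs differed.

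**Figure D1:**
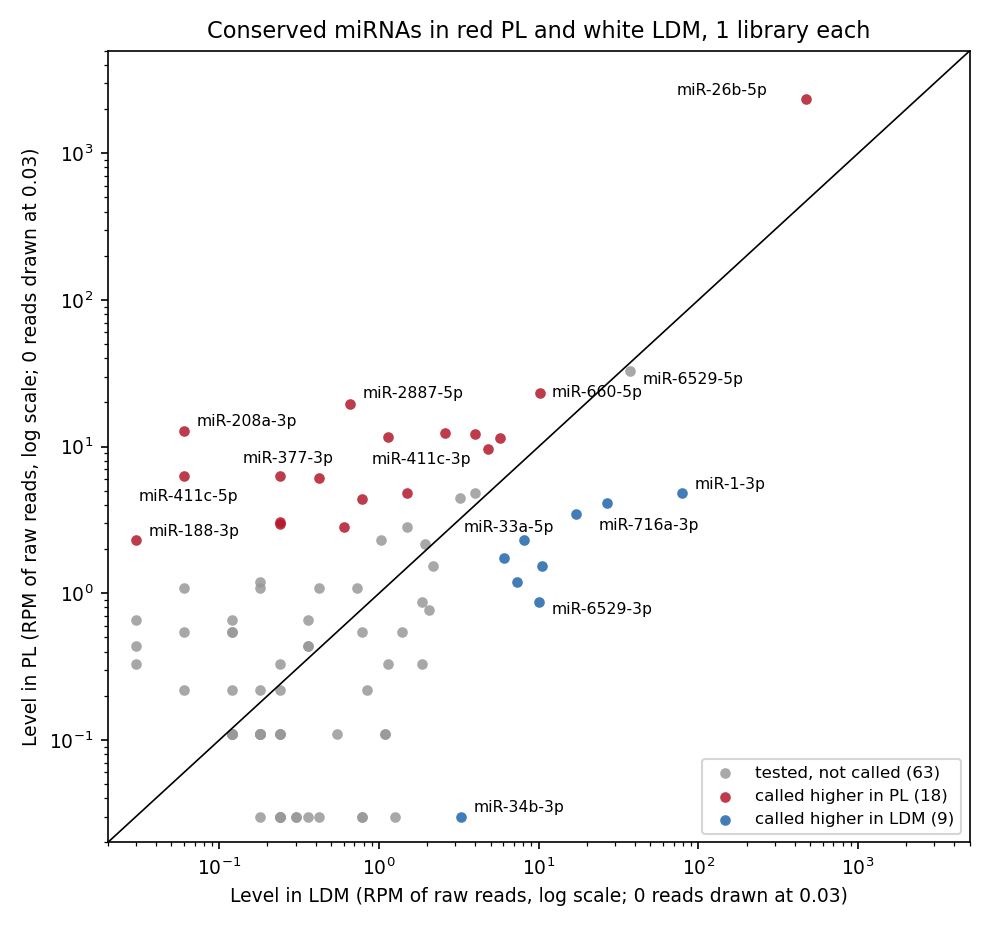
Level of each of the 90 tested miRNAs in PL (vertical axis) and LDM (horizontal axis), in RPM of raw reads on log axes, with the line of equal level. miR-26b-5p stands alone at 2328 RPM in PL and 471.3 RPM in LDM, miR-208a-3p and miR-411c-5p lie far to the left with 1 read in LDM, and miR-34b-3p lies on the bottom margin with no read in PL.

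These counts depend on the library total, because miR-26b-5p held 90.5% of the conserved reads of PL (90.1% to 90.9%) and 62.9% of those of LDM (62.0% to 63.7%). Dividing by the summed conserved reads in place of raw reads shifted every log2 ratio by -1.78, and 6 miRNAs were then called higher in PL and 22 in LDM. With the sum taken without miR-26b-5p the shift was 0.19, with 18 called higher in PL and 8 in LDM. Median-of-ratios factors shifted the ratios by -0.27 (14 and 10 called) and a trimmed mean of M values (TMM) by -0.82 (9 and 12). The median log2 ratio of the 73 tested miRNAs with reads in both libraries was 0.27 by raw reads, -1.51 by summed conserved reads, 0.47 without miR-26b-5p, 0.00 by median-of-ratios, and -0.54 by TMM. A ratio near 1 thus has no fixed direction in these data. Under all 5 totals the same 14 miRNAs were called in the same direction. The 6 higher in PL were miR-208a-3p, miR-411c-5p, miR-411c-3p, miR-377-3p, miR-26b-5p, and miR-2887-5p. The 8 higher in LDM were miR-1-3p, miR-33a-5p, miR-590-5p, miR-330-3p, miR-34b-3p, miR-6529-3p, miR-2904-5p, and miR-716a-3p. Of the 14, miR-2887-5p, miR-2904-5p, and miR-716a-3p are entries of the chromosome 6 window described below, most of whose sequences had a length unusual for miRNAs. No miRNA was called in opposite directions by different totals, but the log2 ratios of miR-660-5p, miR-409-3p, miR-2904-3p, miR-590-3p, and miR-5105-5p fell below 0 by summed conserved reads.

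**Figure D2:**
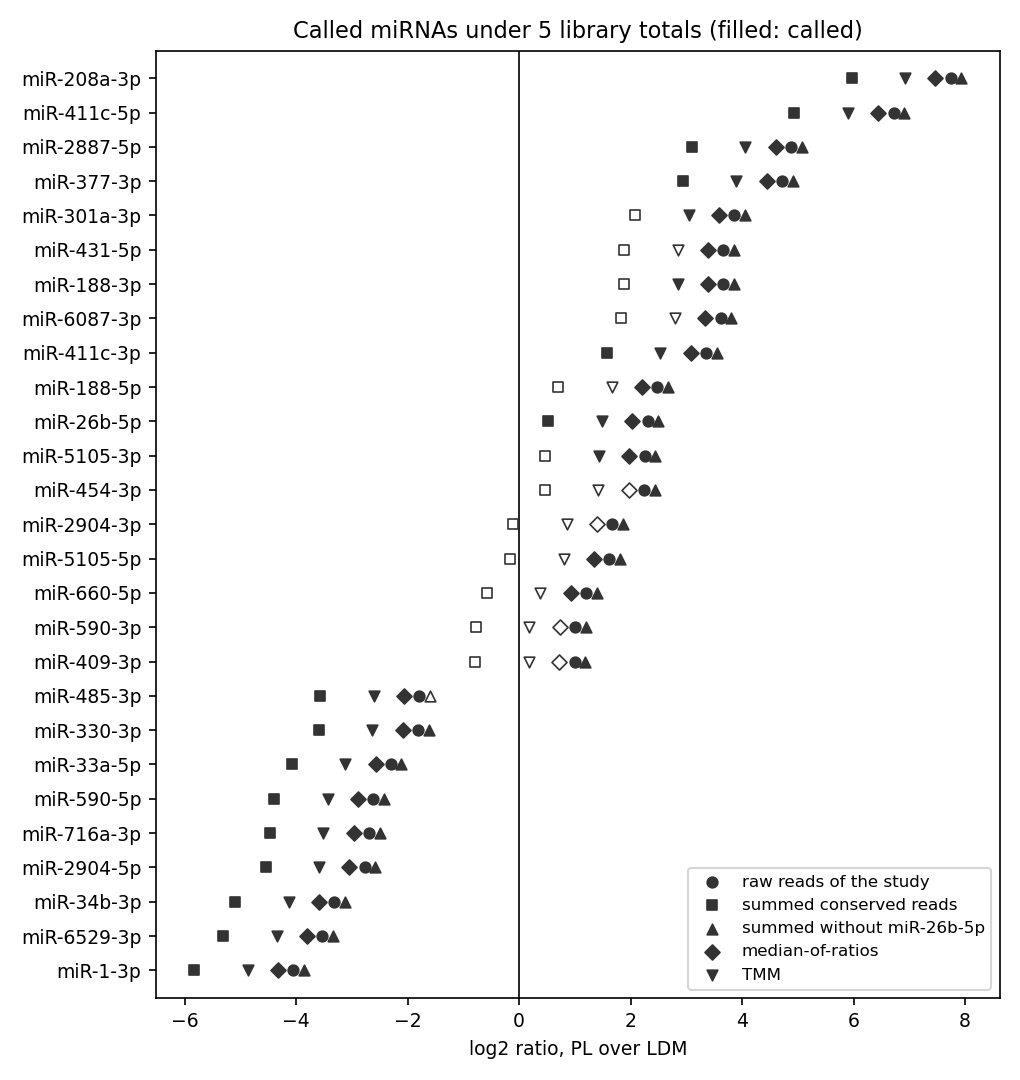
log2 ratio of PL over LDM for the 27 called miRNAs under the 5 library totals, with filled symbols where the miRNA was called. miR-208a-3p ranged from 5.96 to 7.93 and miR-1-3p from -5.82 to -3.85, while miR-660-5p ranged from -0.58 to 1.39 across the line of no difference.

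miR-208a-3p, which in mammals is encoded in an intron of the cardiac myosin heavy chain gene MYH6, had the highest ratio of all tested miRNAs with reads in both libraries. PL had 118 reads (12.9 RPM), LDM 1 read (0.0602 RPM), and PMM 13 reads (0.704 RPM). PL was high, PMM lay between, and LDM was below the level of 3 reads. The ratio of PL to LDM was 214 with a 95% interval of 37.6 to 8518, which is wide because LDM had 1 read. The rank of miR-208a-3p among the conserved miRNAs was 5 in PL and 87 in LDM. The other arm, miR-208a-5p, had 3 reads in PL and PMM and none in LDM, too few for a ratio. The table placed miR-208a at chr7:81043844-81043943 (Sscrofa10.2), and RefSeq also places MYH7, the neighbor of MYH6 and the gene of slow myosin, on this chromosome of the pig (Sscrofa11.1). MYH6 itself was not found among these RefSeq genes, so the place of the host gene was not checked.

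miR-1-3p, the most abundant myomiR of skeletal and cardiac muscle in mammals, was the opposite case. PL had 44 reads (4.80 RPM), LDM 1318 (79.3 RPM), and PMM 892 (48.3 RPM). LDM was 16.5-fold higher than PL (95% interval 12.2 to 22.9), and miR-1-3p had rank 2 in LDM and rank 14 in PL. The listed sequence is the variant with A17G, at chr6:99481915-99482025, and reads of other forms of miR-1 were not analysed here. miR-1-5p had 7, 35, and 34 reads in PL, PMM, and LDM, and was not called (LDM over PL 2.68, interval 1.17 to 7.16) except by summed conserved reads. In all, 4 entries of 2 members of the muscle list of 8 were read and tested, with 1 called in each direction (25.0% each, beside 20% higher in PL and 10% higher in LDM over all tested) and 2 not called. The median log2 ratio of the 3 with enough reads was -1.42, against 0.23 over all 88 tested miRNAs for which a ratio or its limit could be set.

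**Figure D3:**
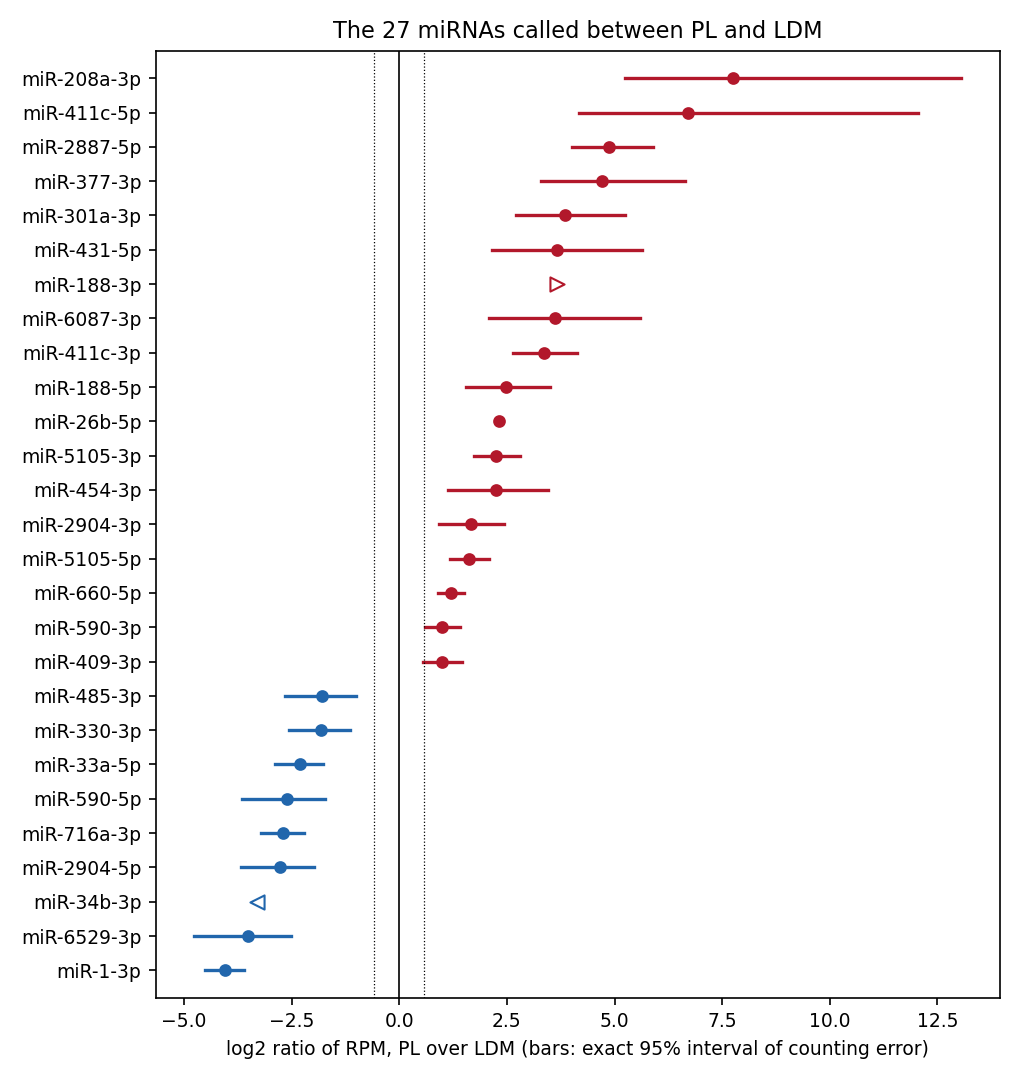
log2 ratio of PL over LDM for the 27 called miRNAs in order of size, with exact 95% intervals for counting error and dotted lines at 1.5-fold. Open triangles mark miR-188-3p and miR-34b-3p, for which 1 library had no read and the position is the limit that 3 reads would give.

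miR-26b-5p, which is encoded in an intron of the phosphatase gene CTDSP1 in mammals and is widely expressed, was the most abundant conserved miRNA in every library. PL had 21348 reads (2328 RPM), LDM 7833 (471.3 RPM), and PMM 10208 (553.0 RPM), so that PL stood apart and PMM was close to LDM. PL was 4.94-fold higher than LDM (95% interval 4.81 to 5.07), and the log2 ratio of 2.30 fell to 0.53 by summed conserved reads, of which miR-26b-5p is the largest part. Its passenger arm did not show the same ratio. miR-26b-3p had 41, 35, and 53 reads in PL, PMM, and LDM and a PL to LDM ratio of 1.402 (interval 0.909 to 2.15), which was not called. The share of the 3p arm among the reads of both arms was 0.192% in PL (0.138% to 0.260%) against 0.672% in LDM (0.504% to 0.878%), with 0.342% in PMM. This share does not depend on the library total, and it differed between PL and LDM with an adjusted p of 1.2e-08 (Fisher's exact test, Benjamini-Hochberg over 18 precursors). The entries named miR-26a had at most 6 reads in a library. The listed miR-26a-5p has the seed CTCGTTC, not the seed TCAAGTA of miR-26b-5p. The paper reports high expression of miR-26a in PL, from its known porcine miRNAs, which lie outside this comparison. The few reads of these entries therefore do not show how abundant miR-26a is in the muscles.

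miR-33a-5p, which lies in an intron of SREBF2 and acts on cholesterol export and fatty acid oxidation in mammals, was higher in LDM. PL had 32 reads (3.49 RPM), LDM 286 (17.2 RPM), and PMM 180 (9.75 RPM). PMM lay between the others, and LDM was 4.93-fold higher than PL (95% interval 3.42 to 7.35). It was the only 1 of the 8 members of the lipid list with reads among the conserved entries. Members already known in the pig were not analysed here.

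The miR-130 and miR-301 family, known for its shared seed and its part in growth signaling, had 3 tested members, and all had ratios above 1, beside 42 of the 90 tested. Higher levels in PL were called for 2 of the 3, beside 20% of all tested. miR-301a-3p had 56 reads in PL (6.11 RPM) against 7 in LDM (0.421 RPM), with 54 in PMM (2.93 RPM), and PL was 14.5-fold higher than LDM (95% interval 6.59 to 37.7). In the order PL, PMM, and LDM, miR-454-3p had 26, 15, and 10 reads and a ratio of 4.71 (2.20 to 11.0). miR-301b-3p had 5, 11, and 1 reads and was not called, with a ratio of 9.06 and an interval of 1.01 to 429. The calls of the first 2 were lost by summed conserved reads, where the log2 ratios were 2.08 and 0.46, and that of miR-454-3p also by median-of-ratios (1.96) and TMM (1.42). In mammals miR-301a and miR-454 are neighbors in introns of SKA2. Entries with reads covered 3 of the 6 names on the list of this family. Their summed level was 9.71 RPM in PL against 1.20 RPM in LDM, with PMM at 4.39 RPM. Family members already known in the pig were not analysed here.

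**Figure D4:**
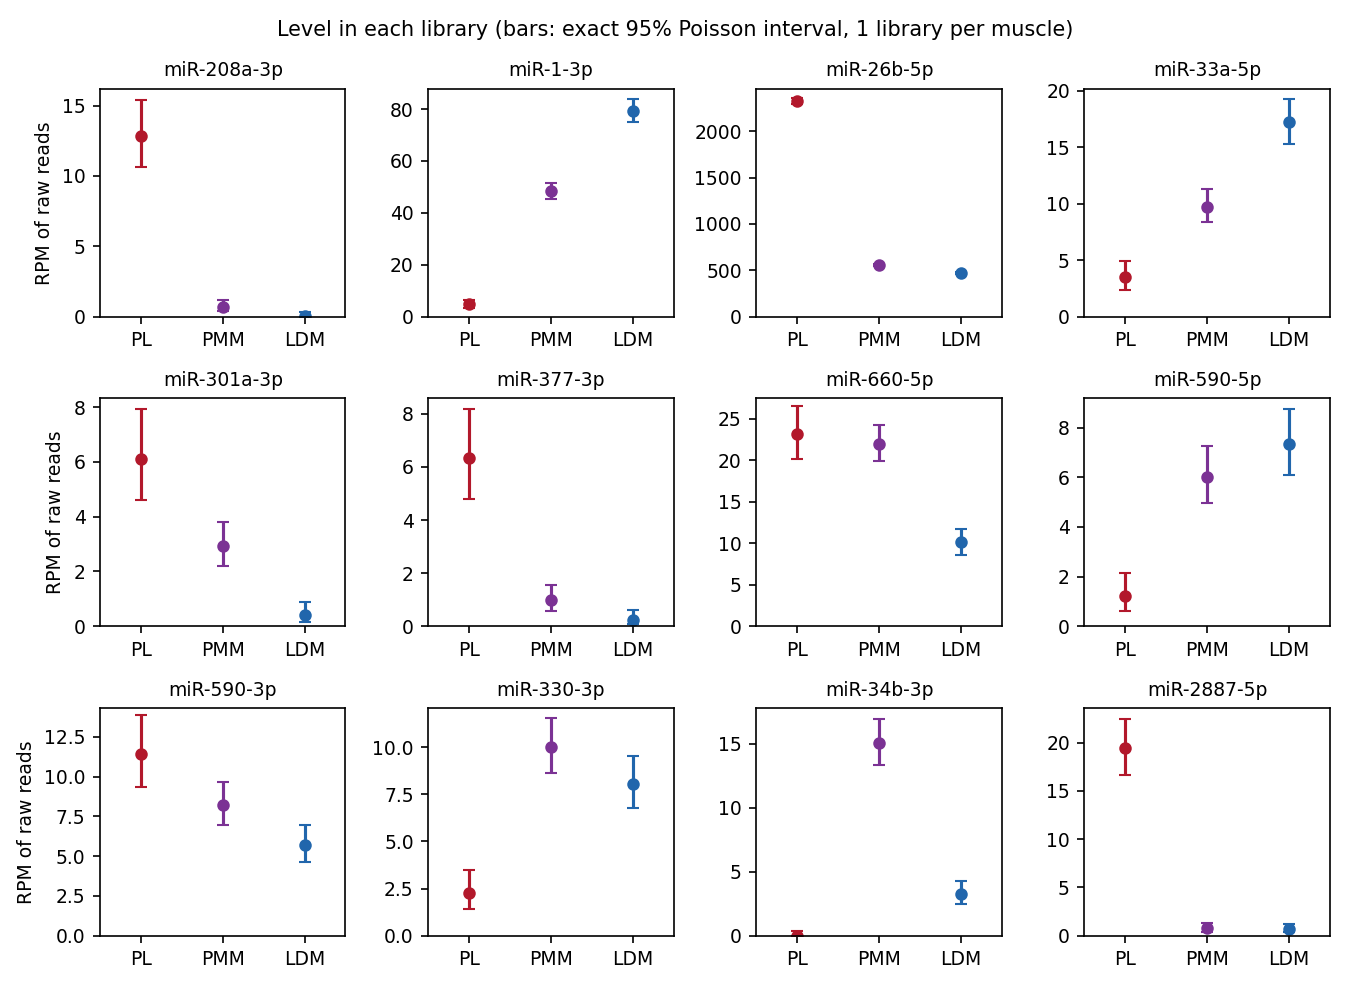
Levels of 12 named miRNAs in PL, PMM, and LDM in RPM of raw reads, with exact 95% Poisson intervals and a linear axis from 0 for each miRNA. miR-1-3p and miR-33a-5p stand lowest in PL with PMM between PL and LDM, miR-377-3p and miR-301a-3p stand highest in PL, and miR-660-5p is nearly level in PL and PMM at 23.2 and 22.0 RPM.

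The imprinted DLK1-DIO3 region carries one of the largest miRNA clusters of mammals, which is expressed from the maternal allele and includes miRNAs active in muscle development and regeneration. In the table, 23 entries of this list had reads in PL or LDM and 20 were tested. Higher levels in PL were called for 5 of the 20, which is 25.0% beside the 20% of all tested, and a higher level in LDM for 1. The other 14 were not called. The median log2 ratio of the 19 with reads in both libraries was 0.91, against 0.27 for the 73 of all tested. The entries of the list held 51.9 RPM in PL against 23.9 RPM in LDM, with PMM at 45.6 RPM. Only 14 of the 61 names on the list had reads in PL or LDM, and cluster members already known in the pig were not analysed here. These values are by raw reads. Summed conserved reads shifted every log2 ratio by -1.78, which puts the median below 0 and the summed level higher in LDM.

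Within this cluster the members differed. miR-377-3p had 58 reads in PL against 4 in LDM, with 18 in PMM, a ratio of 26.3 for PL to LDM (95% interval 9.73 to 99.7). miR-411c-3p had 107, 58, and 19 reads and a ratio of 10.21 (6.23 to 17.6), and miR-411c-5p had 58, 16, and 1 reads and a ratio of 105 (18.1 to 4223). miR-431-5p, at chr7:132097559-132097703, had 28, 12, and 4 reads and a ratio of 12.7 (4.44 to 49.8). For these 4 the order was PL, PMM, and LDM in RPM, and the calls of all but miR-431-5p held under every library total. miR-409-3p had 88, 185, and 80 reads, or 9.60 RPM, 10.0 RPM, and 4.81 RPM. Its ratio of 1.99 (1.46 to 2.73) was called by raw reads. The call was lost by median-of-ratios (log2 ratio 0.72), TMM (0.18), and summed conserved reads, where the ratio turned to -0.78.

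The opposite direction was called for miR-485-3p, with 16 reads in PL against 100 in LDM and 220 in PMM. LDM was 3.45-fold higher than PL (95% interval 2.02 to 6.26), a call that was lost when the sum without miR-26b-5p was the total. The listed miR-485-5p had 3, 62, and 31 reads and lay in the same direction, without a call by raw reads but with one by summed conserved reads and TMM. miR-655-3p had 44, 125, and 66 reads, and its ratio of 1.21 (0.806 to 1.80) was not called by raw reads. By summed conserved reads miR-655-3p was called higher in LDM (log2 ratio -1.51). miR-539-3p, which has the seed of miR-485-3p, had 10, 4, and 3 reads, a ratio of 6.04 (1.56 to 34.2) that did not pass the test after adjustment.

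On the X chromosome, miR-188 and miR-660 lie in introns of the chloride channel gene CLCN5 in mammals. The table placed them within 1 stretch, at chrX:48632378-48632485 and chrX:48640809-48640903. All 3 tested miRNAs were called higher in PL, beside 20% of all tested. Each of the 3 listed sequences differed from its listed precursor by 1 base, and miR-188-5p and miR-188-3p are arms of the same precursor. miR-660-5p had 213 reads in PL against 168 in LDM, with 406 in PMM, a ratio of 2.30 for PL to LDM (95% interval 1.87 to 2.83), and the log2 ratio turned to -0.58 by summed conserved reads. miR-188-5p had 40, 32, and 13 reads and a ratio of 5.58 (2.92 to 11.4). miR-188-3p had 21 reads in PL against none in LDM, with 1 in PMM, and was at least 12.7-fold higher in PL than 3 reads in LDM would be (lower limit of the exact 95% interval of the ratio 9.44). All 3 calls were lost by summed conserved reads, and those of both 5p miRNAs by TMM as well. The other 9 of the 11 names on this list had no conserved entry with reads, and miRNAs already known in the pig were not analysed here.

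The use of the arms was compared within each library, which removes the library total from the comparison. Of 18 precursors with at least 10 reads on both arms together in PL and in LDM, 11 differed in arm share (61.1%, Fisher's exact test, Benjamini-Hochberg adjusted p under 0.05). The 5p share was higher in PL for 7 and the 3p share for 4. Among the 11 are miR-2904, miR-2887, and miR-716a of the chromosome 6 window described below. The sequences listed as the arms of miR-2904 and of miR-2887 overlap on the precursor, so their shares do not compare separate arms. In miR-590, encoded in an intron of EIF4H in mammals and listed at chr3:11024985-11025078, the 3p arm held 90.5% of 116 reads in PL (95% Clopper-Pearson interval 83.7% to 95.2%). It held 57.8% of 263 reads in PMM and 43.8% of 217 reads in LDM (37.1% to 50.7%), and the shares of PL and LDM differed (adjusted p = 2.5e-17, Fisher's exact test). miR-590-5p had 11, 111, and 122 reads in PL, PMM, and LDM, 6.12-fold higher in LDM than in PL (3.30 to 12.6). miR-590-3p had 105, 152, and 95 reads and was 2.003-fold higher in PL (1.503 to 2.67) by raw reads, a call lost by median-of-ratios (log2 ratio 0.73), TMM (0.19), and summed conserved reads (-0.78).

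miR-330 and miR-6529 differed in the same kind of measure. In miR-330 the 3p arm held 21 of 42 reads in PL (interval of the share 34.2% to 65.8%), 94.4% of 196 in PMM, and 88.7% of 151 in LDM (82.6% to 93.3%), with an adjusted p of 9.8e-07 in Fisher's exact test. Of its arms, miR-330-3p had 21, 185, and 134 reads and was 3.52-fold higher in LDM than in PL (2.21 to 5.87), while miR-330-5p had 21, 11, and 17 reads and was not called. In miR-6529 the 3p arm held 2.60% of 308 reads in PL (1.13% to 5.05%), 4.96% of 1170 in PMM, and 21.2% of 787 in LDM (18.4% to 24.2%), with an adjusted p of 8.7e-17 in Fisher's exact test. miR-6529-3p had 8, 58, and 167 reads and was 11.5-fold higher in LDM (5.71 to 27.1). miR-6529-5p was the only uncalled miRNA with at least 100 reads whose interval stayed within 1.5-fold. It had 300, 1112, and 620 reads and a PL to LDM ratio of 0.877 (0.761 to 1.01). It was also uncalled with the sum without miR-26b-5p as the total (log2 ratio 0.0034), but was called higher in LDM by summed conserved reads (-1.97), TMM (-1.01), and median-of-ratios (-0.46).

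Other precursors also differed in arm share. In miR-539 the 3p arm held 76.9% of 13 reads in PL (46.2% to 94.96%) and 13.6% of 22 in LDM (2.91% to 34.9%), and in PMM 9.52% of 42. In miR-411c the 5p arm held 35.2% of 165 reads in PL (27.9% to 43.0%), 21.6% of 74 in PMM, and 5.00% of 20 in LDM (0.127% to 24.9%). In miR-188 the 3p arm held 34.4% of 61 reads in PL (22.7% to 47.7%), 3.03% of 33 in PMM, and none of 13 in LDM, which allows a share of up to 24.7% by the exact interval. Both listed miR-188 sequences differ from the precursor by 1 base, so this share covers the listed entries only. In miR-1 the 5p arm held 13.7% of 51 reads in PL (5.70% to 26.3%), 3.78% of 927 in PMM, and 2.51% of 1352 in LDM (1.75% to 3.50%), where the 3p reads are those of the A17G entry only, so that this share is not that of the whole precursor. In miR-539 and miR-1 the interval of PL overlapped neither that of PMM nor that of LDM. The 7 precursors without a difference included miR-660, miR-454, miR-485, and miR-223, whose PL and LDM intervals overlapped.

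**Figure D5:**
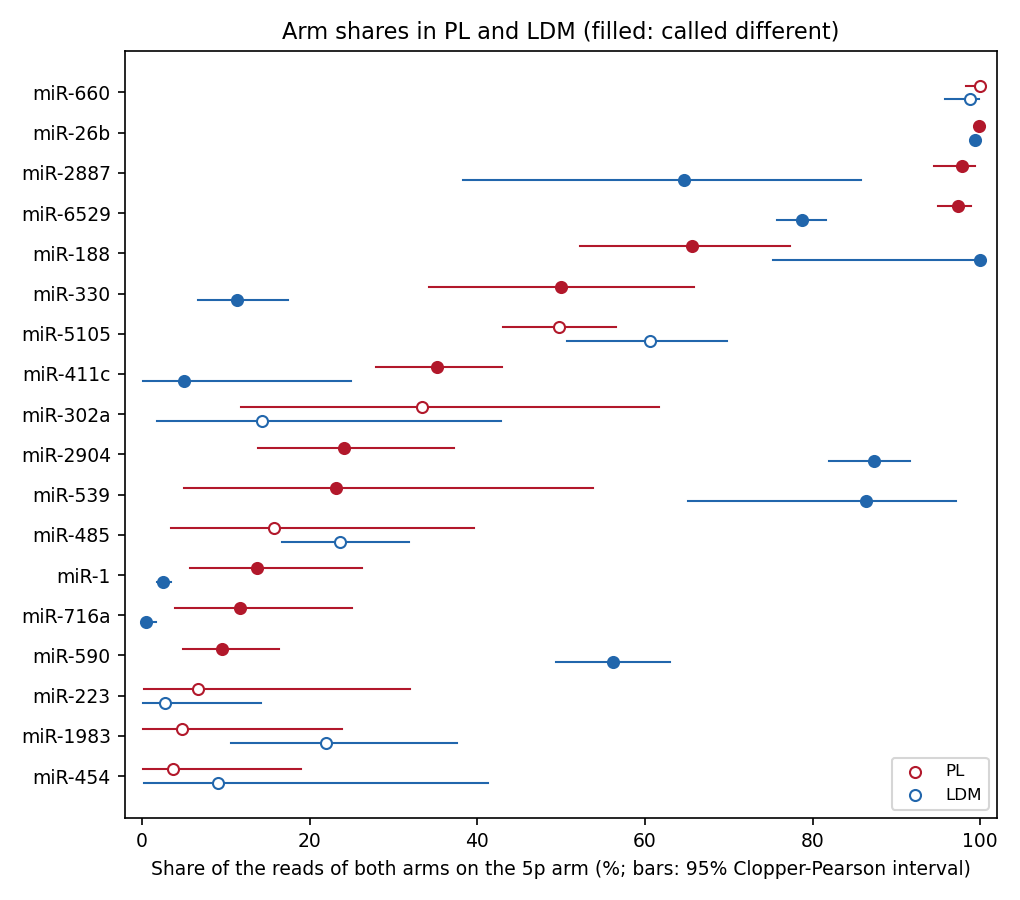
Share of reads on the 5p arm for the 18 precursors with at least 10 reads in both libraries, in percent, with 95% Clopper-Pearson intervals for PL and LDM and filled symbols where the shares differed. miR-590 lies at 9.48% in PL and 56.2% in LDM, miR-330 at 50% and 11.3%, and miR-539 at 23.1% and 86.4%.

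Of the 27 calls, 7 came from the 10 tested entries in 1 window of chromosome 6, listed on the minus strand at chr6:866649-870961 with 5 positions named miR-2887, miR-2904, miR-6087, miR-716a, and miR-5105. This stretch was picked out once the values were known. Its 10 sequences were 16 to 28 nt long with a median GC content of 72.3%, against a median of 45.5% over all tested, and 8 of the 10 were outside the 20 to 24 nt of most miRNAs. The sequences listed as the 2 arms overlapped on the precursor by 20 nt for miR-5105, 17 nt for miR-2887, 16 nt for miR-6087, and 8 nt for miR-2904, so that both sequences of such a pair cover some of the same bases. Calls went both ways, with 5 of the 10 higher in PL and 2 higher in LDM, beside 20% and 10% of all tested. Higher levels in PL were called for miR-5105-5p (112, 124, and 66 reads in the order PL, PMM, and LDM), miR-2887-5p (178, 14, and 11), miR-6087-3p (27, 3, and 4), miR-2904-3p (44, 21, and 25), and miR-5105-3p (113, 78, and 43). miR-716a-3p (38, 639, and 445 reads) and miR-2904-5p (14, 48, and 173) were called higher in LDM. Of the 5 higher in PL, only the call of miR-2887-5p held under every library total, while both calls higher in LDM held. Without the window 20 miRNAs were called, 13 higher in PL and 7 in LDM, and 8 precursors differed in arm share, in place of 11.

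Markers of other cell types were read in the libraries as follows. Ciliated-cell miRNAs of the miR-34b and miR-449 group had 2 reads in PL (0.218 RPM) against 66 in LDM (3.97 RPM), with 311 in PMM (16.8 RPM). Most were miR-34b-3p, listed at chr9:44167411-44167516, which had no read in PL, 54 in LDM, and 278 in PMM, and was at least 9.93-fold higher in LDM than 3 reads in PL would be (lower limit of the exact 95% interval of the ratio 7.80). miR-34b-5p followed with 0, 24, and 7 reads and was not called. The 2 reads of PL were of miR-449a-5p, which had 2, 4, and 3 reads. Its PL to LDM ratio of 1.21 (0.101 to 10.5) lay on the other side of 1 and was not called. Of the 3 tested in this group, 1 was called higher in LDM, beside 10% of all tested. Epithelial miRNAs of the miR-200 and miR-141 group had 9 reads in PL (0.981 RPM) against 32 in LDM (1.93 RPM), with 78 in PMM (4.23 RPM). By raw reads none of the 3 tested was called: miR-200c-3p had 0, 45, and 13 reads, miR-200b-3p 5, 15, and 13, and miR-141-3p 4, 18, and 6, and the ratio of PL to LDM was above 1 for miR-141-3p (below 1 by summed conserved reads and TMM) and below 1 for the other two. The neural list had 6, 198, and 21 reads in PL, PMM, and LDM (0.654, 10.7, and 1.26 RPM). Its 2 tested members went opposite ways, and neither was called by raw reads. All 6 reads of PL were of miR-153-3p, which had none in LDM and 9 in PMM. miR-219-3p had 0 in PL against 21 in LDM and 181 in PMM, at least 3.86-fold higher in LDM than the limit in PL. The blood and immune list was represented by miR-223, with miR-223-3p at 14, 41, and 36 reads and a PL to LDM ratio of 0.705 (0.351 to 1.34). It was not called by raw reads, but was called higher in LDM by summed conserved reads (log2 ratio -2.28). The part of such cells in the differences above was not tested. Embryonic miRNAs of the miR-302 and miR-367 group had 17, 21, and 18 reads in PL, PMM, and LDM (1.85, 1.14, and 1.08 RPM). None of the 3 tested was called. No member of the miR-17 to miR-92 list had an entry with reads in this table.

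Reads in 1 of the 2 libraries only were rare beyond low counts. With a minimum of 3 reads in 1 library and none in the other, 4 of the 90 tested miRNAs were read in PL only and 13 in LDM only. LDM was sequenced 1.81 times deeper. With LDM thinned to the depth of PL, 12 miRNAs were read in 1 library only, in place of 17. Besides miR-188-3p, those in PL only were miR-153-3p (6 reads), miR-216b-5p (4 reads), and miR-208a-5p (3 reads). Besides miR-34b-3p, those in LDM only with at least 10 reads were miR-219-3p, miR-200c-3p, and miR-496-3p. By raw reads none of them was called apart from miR-188-3p and miR-34b-3p. miR-219-3p was called higher in LDM by summed conserved reads and TMM, and miR-200c-3p and miR-496-3p by summed conserved reads.

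The 10 most abundant conserved miRNAs of PL and of LDM shared 3 members, miR-26b-5p, miR-6529-5p, and miR-660-5p. miR-208a-3p, miR-411c-3p, miR-590-3p, and miR-409-3p were among the 10 of PL only, as were miR-2887-5p, miR-5105-3p, and miR-5105-5p of the chromosome 6 window. miR-1-3p, miR-33a-5p, miR-330-3p, miR-590-5p, and miR-6529-3p were among the 10 of LDM only, as were miR-716a-3p and miR-2904-5p of that window. The sequences of the called groups outside the chromosome 6 window are given as a description, without a test. The 13 higher in PL had a median length of 22 nt and a median GC content of 39.1%, with 8 from the 3p arm, 6 with T as the first base, and 3 on the X chromosome. The 7 higher in LDM had a median of 22 nt and 42.9% GC, with 5 from the 3p arm, 1 with T as the first base, and none on the X chromosome. Of all 90 tested, 50 were from the 3p arm, 29 had T as the first base, and 4 were on the X chromosome. The 3 on the X chromosome that were higher in PL were those of miR-188 and miR-660 described above. Among the 84 seeds of the tested miRNAs, 5 were shared by more than 1 miRNA, and the seed of the miR-301 family was the only one with 3 members.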

How the data were processed

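Per the paper's methods, the authors kept reads with a 3' adapter and a length typical of small RNA, mapped them to precursors of miRBase 19.0, and placed these precursors on the genome of the pig (Sscrofa10.2, as the submitters' processing notes give it). The deposited values are whole read counts per miRNA and library, without normalization. A mark in place of a number was read as 0 (118 of 456 cells). Totals were the raw reads of the libraries as given by the study (PL 9.17 M, PMM 18.46 M, and LDM 16.62 M). miRNAs already known in the pig and candidate miRNAs were not analysed here.

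Identical mature sequences were merged, with the largest value per library kept. The 3 two-sided tests (Audic-Claverie, chi-squared without correction, and Fisher's exact test) were adjusted by Bonferroni over 90 miRNAs. Ratios have exact binomial, levels exact Poisson, and shares Clopper-Pearson 95% intervals. The named miRNAs are all called ones, the 10 most abundant of PL and of LDM, up to 5 members per list with most reads, uncalled ones with at least 100 reads and an interval within 1.5-fold, and precursors whose arms differed. A few others with low counts, and the chromosome 6 window, were named after their values were seen. The members and the 12 lists were chosen with earlier results of these data known, and the lists were described by counts, with no test. Of the 9 names on the vascular and hypoxia list, only miR-26a and miR-26b had reads here.

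A RefSeq gene table (Sscrofa11.1) served for gene names and chromosomes only. It placed SKA2, the mammalian host gene of miR-301a and miR-454, on another chromosome than the deposited table did, and 3 positions listed on chromosome 12 lay over 1.5 times beyond the last RefSeq gene there. Positions are therefore printed only for chromosomes 3, 6, 7, 9, and X, and none for unnamed scaffolds. Gene overlap was not looked up, since a genome of this build was not used here. Alternatives were other totals (summed conserved reads with and without miR-26b-5p, median-of-ratios, and TMM with 30% of M and 5% of A values trimmed), other read minimums, every entry in place of unique sequences, identical sequences summed, a single test (Fisher's), Benjamini-Hochberg adjustment, and fold thresholds of 1.5 and 2. For the number read in 1 library only, LDM was also thinned to the depth of PL. The software was Python 3.11.15 (matplotlib 3.10.9, numpy 2.4.6, pandas 2.3.3, scipy 1.17.1).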

Additional observations from a re-analysis of the deposited data

How the results depend on the processing

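The library total moved the counts of calls in each direction and the median ratio more than the other settings did, and the read minimum moved the number read in 1 library only. The number called higher in PL was 18 by raw reads, 6 by summed conserved reads, and 9 by TMM, and the number called higher in LDM rose from 9 to 22 by summed conserved reads, which moved every log2 ratio by -1.78. The median log2 ratio of 0.23 became -1.55 by summed conserved reads, 0.42 without miR-26b-5p, -0.047 by median-of-ratios, -0.59 by TMM, and 0.12 without the chromosome 6 window, a setting added after the data were seen. Among the miRNAs named by the rule, by summed conserved reads the log2 ratio turned for the called miR-2904-3p (-0.10), miR-409-3p (-0.78), miR-590-3p (-0.78), miR-5105-5p (-0.16), and miR-660-5p (-0.58), and, among those uncalled by raw reads, for miR-330-5p (-0.62), miR-655-3p, miR-2887-3p, miR-141-3p, and miR-449a-5p (-1.51 each), miR-302a-3p (-1.18), and miR-26b-3p (-1.29). By TMM it turned among them for miR-655-3p, miR-2887-3p, miR-141-3p, and miR-449a-5p (-0.54 each), miR-302a-3p (-0.22), and miR-26b-3p (-0.33), and without miR-26b-5p for miR-6529-5p (0.0034). Total calls ranged from 20 to 28 over all settings. With other read minimums, every entry, identical sequences summed, other tests or adjustments, or fold thresholds of 1.5 and 2, calls stayed between 25 and 28. miRNAs read in 1 library only numbered 17, 55 with no read minimum, 5 with at least 10 reads, and 12 with LDM thinned to the depth of PL. With at least 30 reads on the 2 arms, 9 precursors were tested and 7 differed.

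No paired analysis was possible because PL and LDM are single libraries. No library was left out for the same reason, batch and fiber type cannot be told apart, and differences between animals were not measured. The reads covered a small part of each library, and changes of miRNAs with few reads were not detectable at this depth.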
